A study of Homo sapiens with 8 samples.

Results

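Collagens were followed in a breast cancer cell line with altered SUN2, taking as members every entry of the gene count table whose symbol has the form COL, number, A, number. This rule read symbols and no measured value, but it was chosen with earlier results of these data known. It gave 44 collagen genes of 25369 genes in the table. They were grouped as 11 fibrillar chains, 6 basement membrane chains of type IV, and 27 others. RNA sequencing had been done on 8 libraries of MDA-MB-231, an established human breast cancer line of triple-negative type and mesenchymal appearance, in 4 genotypes with 2 libraries each. WT cells were unmodified. SUN2KO cells were labelled as a knockout of SUN2, an inner nuclear membrane protein of the LINC complex, which joins the cytoskeleton to the nucleus. Kashlid cells carried SUN2 without amino acids 569 to 585, designed to break its link to Nesprin-2G in the outer nuclear membrane, and LBD cells carried SUN2 without amino acids 1 to 139, designed to break its link to the lamins under the membrane. No group was given a drug or other agent per the labels. Whether a truncated SUN2 was placed in WT or in knockout cells, by what means, and whether a line is 1 clone is not given in the sources used here.

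Each collagen is built from 3 polypeptide chains wound into a triple helix, and the chains of 1 molecule may come from different genes. Fibrillar collagens form the cable-like fibrils of the stroma, type IV collagens form the sheet of the basement membrane, and the remaining types decorate fibrils, anchor epithelium, form networks or span the cell membrane. Carcinoma cells are surrounded by such a matrix, and they secrete some of its chains themselves.

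Library depth lay between 16570099 and 18814795 counts. The labels do not tie the 2 libraries of a genotype to separate cultures, so each p-value measures the spread between libraries only, which may be technical. SUN2 was at 83.7 and 81.9 CPM in WT, 25.6 and 30.3 for SUN2KO, 37.2 and 35.4 for Kashlid and 32.5 and 34.6 for LBD (CPM, the counts scaled to library size with TMM factors). Its log2 fold change against WT was -1.56 ± 0.08 (± SE) for SUN2KO, -1.19 ± 0.08 for Kashlid and -1.30 ± 0.08 for LBD. By edgeR's quasi-likelihood test with Benjamini-Hochberg adjustment over 14016 genes, the adjusted p was 1.01e-11, 2.28e-10 and 9.22e-11. All 3 altered lines thus held less SUN2 transcript than WT, and whether a deleted stretch is missing cannot be read from gene totals. Of 10 markers of the line and of other breast cancer classes, the keratins KRT8 and KRT18 and the mesenchymal VIM were abundant and PGR had at most 1 count in any library. ESR1 had 6 to 17 counts per library. ERBB2 was detected at 47.8 to 57.9 CPM and was called higher in SUN2KO than in WT (0.20 on the log2 scale). The sums and counts that follow are for the whole list. Their sum was 2266 to 2297 CPM in WT, 3034 to 3036 for SUN2KO, 2267 to 2494 for Kashlid and 2749 to 2753 for LBD, and of 8 tested, 4 rose and 1 fell in SUN2KO, 3 rose and 1 fell in Kashlid, and 4 rose and 1 fell in LBD. VIM was the 1 that fell in each line (-0.43, -0.43 and -0.26 on the log2 scale), while KRT18 (0.65, 0.33 and 0.44) and EPCAM (1.34, 0.60 and 0.68) rose in each. CD44, of the same list, was at 329 and 337 CPM in WT, 336 and 310 for SUN2KO, 343 and 334 for Kashlid and 407 and 420 for LBD. CDH1 was low, at 0.568 to 1.68 CPM, and its value of 0.73 in SUN2KO was not called. KRT19 had at most 5 counts in any library and was not tested. With chromosomes cut into fixed 5 Mb windows, the 15 other tested genes in the VIM window had a median of -0.50 in SUN2KO. The medians there were 0.15 for the KRT18 window and -0.04 for that of EPCAM. The part of the window's shift in the VIM value was not tested. Fibroblast markers, collagens left out, summed to 1092 to 1094 CPM in WT, 891 to 896 for SUN2KO, 791 to 813 for Kashlid and 759 to 764 for LBD over 15 genes. Of these 15, 1 gene was without a read in WT, 2 for SUN2KO, 3 for Kashlid and 2 for LBD. PDGFRA, which defines fibroblasts, had 0 counts in every library and THY1 had at most 5, but S100A4 (285 to 432 CPM), FBLN1 (174 to 315), MMP2 (134 to 197) and LUM (25.1 to 94.0) were well detected in this line. Of 11 tested fibroblast markers, 2 rose and 7 fell in SUN2KO, 3 rose and 6 fell in Kashlid, and 1 rose and 6 fell in LBD. The part of these markers in the collagen values was not tested. In RNA from a whole culture, fewer cells making a transcript and less transcript per cell cannot be told apart.

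Of the 44 collagens, 26 had enough counts to be tested: 8 fibrillar, all 6 of type IV and 12 others. Collagen counts made up 0.401% and 0.415% of all counts in WT, 0.273% and 0.290% for SUN2KO, 0.352% and 0.357% for Kashlid, and 0.333% and 0.360% for LBD. The share was highest in WT and lowest in SUN2KO, and the libraries of those genotypes overlapped with none of the other genotypes. Per kilobase of transcript, COL5A1 was the most abundant collagen in WT at 153 CPM per kb, followed by COL7A1 at 112 and COL5A2 at 65.8. In SUN2KO the order was COL5A2 at 80.5, COL7A1 at 77.1 and COL5A1 at 62.4 CPM per kb. The libraries of COL5A2 and COL7A1 overlapped there on this scale. COL7A1 led in Kashlid at 131 and in LBD at 120.4 CPM per kb, ahead of COL5A1 at 77.8 and 87.8.

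**Figure D1:**
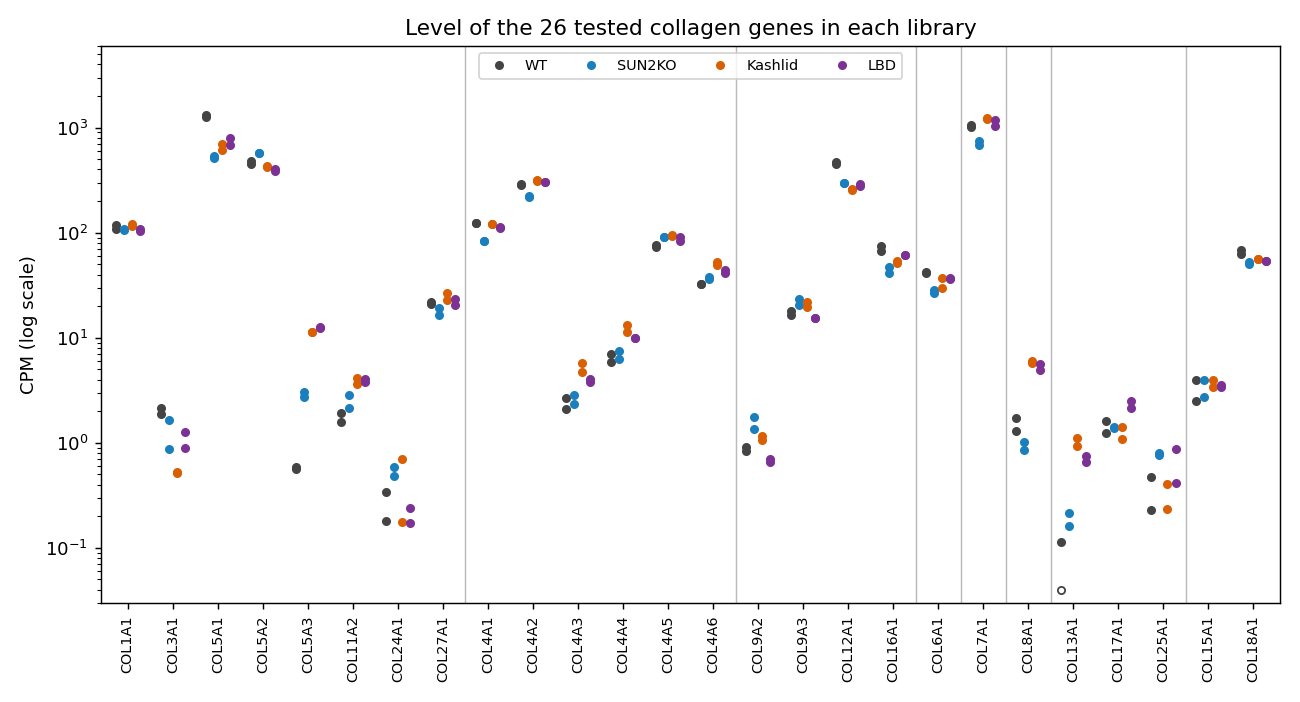
Level of the 26 tested collagens in each library, with genes on the horizontal axis and CPM on a log10 vertical axis, 1 point per library coloured by genotype. The open circle at the lower edge is the WT library with 0 counts of COL13A1. The WT points of COL5A1 lie above all others of that gene, and the Kashlid and LBD points of COL5A3, COL8A1 and COL13A1 lie above those of WT and SUN2KO.

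Against WT, the tested collagens split between both directions in each line. In SUN2KO 4 rose and 8 fell at adjusted p under 0.05, and 14 were not called. Over all 14016 genes tested, 36.7% were called in that comparison, 17.5% higher and 19.1% lower. In Kashlid 10 collagens rose and 7 fell, where 44.5% of all genes were called, 21.7% higher and 22.7% lower. In LBD 8 rose and 5 fell, where 40% of all genes were called, 19% higher and 21% lower. The collagens called were thus 12 of 26 (46.2%), 17 of 26 (65.4%) and 13 of 26 (50%), and no test of the group against other genes was made. In the authors' deposited tables, 11 of these 12, 13 of these 17 and 9 of these 13 have an adjusted p under 0.05. Those that do not are COL9A3 in SUN2KO, COL4A2, COL5A2, COL6A1 and COL18A1 in Kashlid, and COL4A3, COL4A5, COL13A1 and COL16A1 in LBD. The median log2 fold change of the tested collagens was 0.01 in SUN2KO, 0.21 in Kashlid and 0.05 in LBD, and that of all genes tested was 0.00, 0.01 and 0.00. The 3 comparisons share the WT libraries, so their values stand side by side and are not independent of each other. Of the tested members, 5 were below the filter's minimum in at least 1 library (COL3A1, COL5A3, COL13A1, COL24A1 and COL25A1), and they entered through the libraries where they were higher. COL13A1 was past the minimum in no WT or SUN2KO library, so the filter admitted it through Kashlid and LBD alone. Without it 9 collagens rose in Kashlid and 7 in LBD. COL5A3, still counted among those that rose in each line, was past the minimum in only 1 WT library. COL3A1, a fibrillar chain among the 7 that fell in Kashlid, was past the minimum in no Kashlid library.

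**Figure D2:**
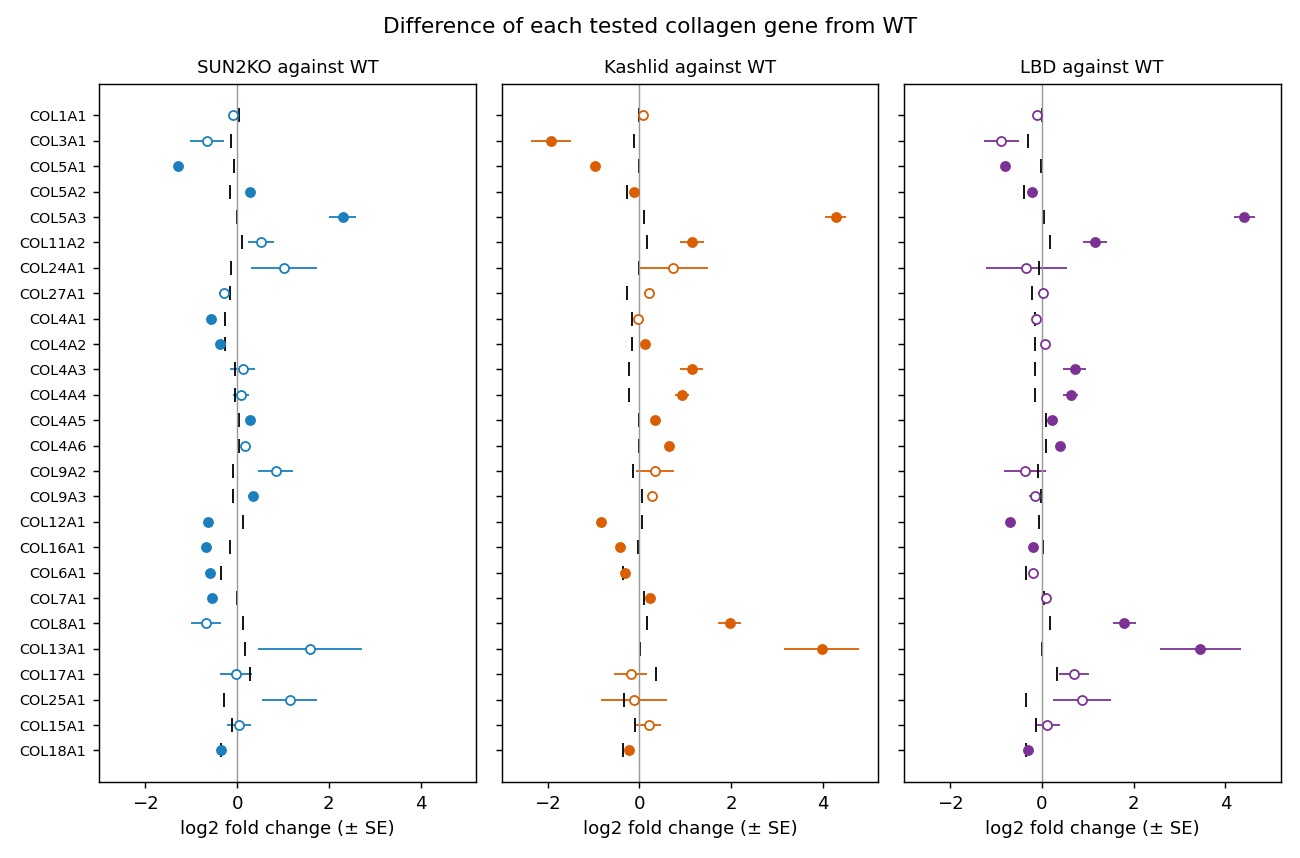
Log2 fold change of each tested collagen against WT in SUN2KO, Kashlid and LBD, with bars for the SE of the fit. Filled points passed edgeR's test at adjusted p under 0.05. The black tick is the median log2 fold change of the other tested genes in the same fixed 5 Mb window. COL5A1 and COL12A1 lie left of 0 in all 3 panels, and COL5A3 lies right of 0 in all 3.

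Of the 8 tested fibrillar collagens, 2 rose and 1 fell in SUN2KO, 2 rose and 3 fell in Kashlid, and 2 rose and 2 fell in LBD, beside 36.7%, 44.5% and 40% of all genes called. Their transcripts summed to 1874 and 1929 CPM in WT, 1215 and 1248 for SUN2KO, 1203 and 1292 for Kashlid, and 1219 and 1359 for LBD over all 11 members. WT was highest without overlap, and most of the gap lay in COL5A1. Type V collagen is a minor partner of type I that helps to start fibrils and set their width, and its chains come from COL5A1, COL5A2 and COL5A3. COL5A1 (chromosome 9, 137533651 to 137736688 on hg19) was at 1275 and 1316 CPM in WT, 516 and 542 for SUN2KO, 614 and 704 for Kashlid and 686 and 801 for LBD. Both WT libraries were above all others, and SUN2KO was lowest without overlap. COL5A1 fell by 1.29 ± 0.06 on the log2 scale in SUN2KO, by 0.97 ± 0.06 in Kashlid and by 0.80 ± 0.06 in LBD (SE; edgeR adjusted p = 3.69e-12, 1.11e-10 and 2.31e-09). The 76 other tested genes in its 5 Mb window had median log2 fold changes of -0.07, -0.01 and -0.02, so the window as a whole did not shift with it.

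COL5A3 (chromosome 19, 10070237 to 10121147) went the other way, from a very low start. Its counts were 10 and 10 in WT, 50 and 57 for SUN2KO, 197 and 193 for Kashlid, and 215 and 211 for LBD, or 0.594 and 0.568 CPM in WT, 2.71 and 3.06 for SUN2KO, 11.4 and 11.3 for Kashlid and 12.4 and 12.6 for LBD. The 4 genotypes formed 4 ranges without overlap, lowest in WT and highest in LBD. COL5A3 was called higher in SUN2KO, Kashlid and LBD, by 2.30 ± 0.29, 4.27 ± 0.24 and 4.41 ± 0.24 on the log2 scale. In mean CPM these are 4.96-fold, 19.5-fold and 21.5-fold. No p-value against WT is given, since only 1 WT library was past the filter's minimum and the higher groups brought COL5A3 into the test. COL5A3 was also higher than in SUN2KO by 1.97 ± 0.18 in Kashlid and by 2.12 ± 0.17 in LBD (edgeR adjusted p = 7.07e-08 and 2.26e-08). The 117 other tested genes in the 5 Mb window of COL5A3 had medians of -0.00, 0.09 and 0.06 against WT. COL5A3 lies at the edge of this window, so genes on its other side are not covered.

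COL5A2 (chromosome 2, 189896641 to 190044605) was at 454 and 478 CPM in WT, 570.0 and 569.7 for SUN2KO, 433 and 422 for Kashlid and 391 and 408 for LBD. SUN2KO stood above WT and LBD below it, each without overlap, and both Kashlid libraries were also below WT. COL5A2 rose in SUN2KO by 0.29 ± 0.04 (edgeR adjusted p = 2.9e-05) and fell by 0.22 on the log2 scale in LBD (0.000444). Its small fall in Kashlid (-0.12 ± 0.04, adjusted p = 0.0283) was lost with library size only (0.117), in a fit of the 2 groups alone (0.0553), without WT replicate 2 (0.247) and without Kashlid replicate 2 (0.0819). The 7 tested neighbours had medians of -0.16, -0.27 and -0.38. The part of that shift in the COL5A2 values was not tested.

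Set side by side per kilobase, the type V transcripts changed in their proportions. COL5A1 made up 70.1% and 69.7% of the 3 chains in WT, 42.9% and 44.1% for SUN2KO, 53.5% and 57.5% for Kashlid, and 58.6% and 61.3% for LBD. COL5A2 made up 29.9% and 30.3% in WT, 56.7% and 55.5% for SUN2KO, 45.1% and 41.2% for Kashlid, and 40.0% and 37.4% for LBD. SUN2KO was thus the 1 genotype in which COL5A2 transcripts exceeded those of COL5A1, with COL5A2 at 1.32 and 1.26 times COL5A1 against 0.426 and 0.434 in WT. The COL5A3 share was 0.0448% and 0.0413% in WT, 0.309% and 0.342% for SUN2KO, 1.36% and 1.27% for Kashlid, and 1.46% and 1.32% for LBD. Even after its rise, COL5A3 thus remained a small part of type V transcript. These are shares of RNA, and chain assembly was not measured.

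**Figure D3:**
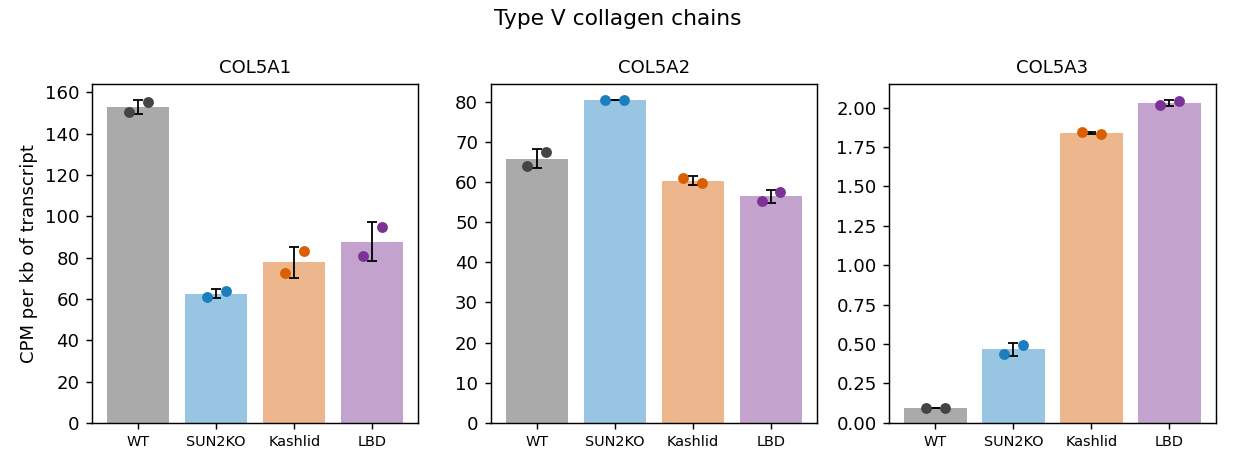
Type V collagen transcripts by genotype, in CPM per kb of transcript, with a panel and a scale of its own for each chain. Bars are means of 2 libraries, error bars are SD, and points are libraries. COL5A1 is highest in WT, COL5A2 is highest in SUN2KO, and COL5A3 is highest in LBD and lowest in WT.

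The sequences just upstream of COL5A1 and COL5A3 are shown because these genes share a protein family and moved in opposite directions. Each is the 250 bases before the start site in RefSeq on GRCh38.p14, written 5′ to 3′ on the strand of the gene. Capitals mark GGGCGG (the GC box), CCAAT or TATAAA (the TATA box), read on either strand.
COL5A1 (chr9:134641553-134641802, plus strand): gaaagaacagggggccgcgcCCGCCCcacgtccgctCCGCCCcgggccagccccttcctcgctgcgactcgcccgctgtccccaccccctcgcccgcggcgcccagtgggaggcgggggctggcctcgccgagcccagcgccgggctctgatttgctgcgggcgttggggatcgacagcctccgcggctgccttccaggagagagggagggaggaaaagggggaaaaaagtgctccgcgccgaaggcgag
COL5A3 (chr19:10010505-10010754, minus strand): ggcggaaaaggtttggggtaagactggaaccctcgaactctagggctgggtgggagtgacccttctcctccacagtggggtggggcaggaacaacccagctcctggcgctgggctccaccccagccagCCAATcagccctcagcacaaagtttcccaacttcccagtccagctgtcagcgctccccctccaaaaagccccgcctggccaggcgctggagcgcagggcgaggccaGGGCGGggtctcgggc
COL5A1 holds 2 GC boxes and COL5A3 holds 1 GC box and 1 CCAAT. Among 35116 RefSeq promoter windows, 45% hold GGGCGG, 34.6% hold CCAAT and 11.5% hold TATAAA on either strand. These windows run past the start site and are longer than the stretches printed, so the shares are not for equal lengths. Of the 44 windows that matched 32 collagen symbols, 24, 14 and 8 hold them. A match describes these letters only and is not evidence of binding.

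The other fibrillar chains included the main stromal collagens. COL1A1, the major chain of type I collagen, was at 119 and 109 CPM in WT, 106 and 108 for SUN2KO, 117 and 122 for Kashlid and 104 and 109 for LBD. WT and Kashlid overlapped, and SUN2KO and LBD reached just short of the lower WT library. The log2 fold changes of -0.09 ± 0.06, 0.07 ± 0.06 and -0.10 ± 0.06 were not called. Its 95% intervals were -0.21 to 0.04 in SUN2KO, -0.05 to 0.20 in Kashlid and -0.22 to 0.03 in LBD. COL1A2, the other chain of type I, had 4 counts over all 8 libraries, so transcript of 1 type I chain was found with almost none of its usual partner.

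COL3A1, a fibrillar chain of soft tissues, was at 2.14 and 1.87 CPM in WT, 0.866 and 1.67 for SUN2KO, 0.520 and 0.528 for Kashlid and 1.27 and 0.897 for LBD. Kashlid was lowest and did not overlap with any other genotype. COL3A1 fell in Kashlid by 1.92 ± 0.44 on the log2 scale, from counts of 9 in each Kashlid library, and was called lower. No p-value is given, since only the groups where it was higher brought it into the test. The values of -0.66 ± 0.37 in SUN2KO and -0.88 ± 0.39 in LBD were not called. COL11A2, a chain of cartilage collagen, was at 1.90 and 1.59 CPM in WT, 2.16 and 2.85 for SUN2KO, 3.64 and 4.11 for Kashlid and 3.76 and 4.07 for LBD. It was above WT in all 6 libraries of the altered lines. COL11A2 rose in Kashlid by 1.15 ± 0.27 and in LBD by 1.16 ± 0.27 (adjusted p = 0.00152 and 0.00158), while 0.52 ± 0.28 in SUN2KO was not called. COL27A1, at 16.3 to 26.9 CPM over the 8 libraries, and COL24A1, at 0.174 to 0.694 CPM, were not called against WT. COL27A1 was called lower in SUN2KO in a fit of the 2 groups alone (0.0374), and stood at -0.40 without SUN2KO replicate 2. In Kashlid it stood at 0.32 without Kashlid replicate 1. It was called higher there with the median of its 5 Mb window taken off (0.43 in place of 0.21, adjusted p = 0.00401).

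The 6 type IV genes lie in the genome as 3 head-to-head pairs, each pair reading outward from a shared stretch of DNA. On GRCh38.p14 the RefSeq start sites of COL4A1 and COL4A2 are separated by 126 bases on chromosome 13, those of COL4A3 and COL4A4 by 418 bases on chromosome 2, and those of COL4A5 and COL4A6 by 379 bases on chromosome X. The shared stretch is printed because the members of a pair are compared next. The first sequence is the whole stretch between COL4A1 and COL4A2, and the others are the 250 bases upstream of COL4A3 and COL4A5, with the same motifs in capitals.
COL4A1 and COL4A2 (chr13:110307158-110307283, plus strand): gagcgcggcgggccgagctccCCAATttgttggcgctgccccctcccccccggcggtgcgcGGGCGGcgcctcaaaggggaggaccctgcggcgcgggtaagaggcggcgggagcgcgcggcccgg
COL4A3 (chr2:227164374-227164623, plus strand): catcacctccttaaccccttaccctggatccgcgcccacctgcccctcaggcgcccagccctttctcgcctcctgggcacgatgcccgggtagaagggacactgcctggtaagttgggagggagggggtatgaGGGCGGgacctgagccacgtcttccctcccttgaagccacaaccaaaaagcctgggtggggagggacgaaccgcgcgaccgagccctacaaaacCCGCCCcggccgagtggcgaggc
COL4A5 (chrX:108439588-108439837, plus strand): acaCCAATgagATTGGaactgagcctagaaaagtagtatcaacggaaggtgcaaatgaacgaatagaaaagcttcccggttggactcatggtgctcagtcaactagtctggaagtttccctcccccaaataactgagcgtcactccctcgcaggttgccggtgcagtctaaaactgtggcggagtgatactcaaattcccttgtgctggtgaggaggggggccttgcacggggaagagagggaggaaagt
The first holds 1 GC box and 1 CCAAT, the second holds 2 GC boxes, and the third holds 2 CCAAT. The shares given above are for windows longer than these stretches.

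COL4A1 and COL4A2 encode the widespread type IV collagen of most basement membranes. COL4A1 (chromosome 13, 110801310 to 110959496 on hg19) was at 124 and 123 CPM in WT, 83.9 and 83.1 for SUN2KO, 121 and 121 for Kashlid and 110.4 and 114 for LBD. COL4A2 (chromosome 13, 110959631 to 111165373) was at 287 and 291 CPM in WT, 219.6 and 226 for SUN2KO, 318 and 311 for Kashlid and 307 and 303 for LBD. Both genes were lowest in SUN2KO, which overlapped with no other genotype. In SUN2KO COL4A1 fell by 0.56 ± 0.06 and COL4A2 by 0.38 ± 0.05 on the log2 scale (edgeR adjusted p = 1.1e-07 and 2.12e-06). The 28 other tested genes in their 5 Mb window had a median of -0.27 there. With the median of the whole window taken off, COL4A1 stayed lower (-0.25, adjusted p = 0.00203) and COL4A2 did not (-0.06, adjusted p = 0.393).

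In the truncation lines this pair differed little from WT in size. COL4A1 gave -0.03 ± 0.05 in Kashlid and -0.13 ± 0.05 in LBD, neither called, the latter with an adjusted p of 0.0539. That LBD value passed with a stricter filter (0.0493) and with the 2 groups alone (just under it). COL4A2 was called higher in Kashlid at 0.12 ± 0.05 (adjusted p = 0.0357), and 0.08 ± 0.05 in LBD was not called. The Kashlid call was lost in DESeq2 (0.0574), with the 2 groups alone (0.0547), and without WT replicate 1 (0.177), WT replicate 2 (0.0909) or Kashlid replicate 1 (0.0997). With the neighbours' median taken off, COL4A1 changed sign to 0.12 in Kashlid and 0.00827 in LBD, neither called (adjusted p = 0.0906 and 0.949), and COL4A2 passed in LBD (0.22, adjusted p = 0.000833).

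COL4A3 and COL4A4 encode chains of the specialised basement membranes of kidney and lung, and both were low in this line. COL4A3 (chromosome 2, 228029281 to 228179508) was at 2.08 and 2.67 CPM in WT, 2.33 and 2.85 for SUN2KO, 5.78 and 4.69 for Kashlid and 4.05 and 3.77 for LBD. COL4A4 (chromosome 2, 227867427 to 228029275) was at 5.83 and 7.04 CPM in WT, 6.22 and 7.42 for SUN2KO, 13.2 and 11.3 for Kashlid and 9.95 and 9.98 for LBD. For both genes Kashlid and LBD lay above WT and SUN2KO without overlap, and SUN2KO overlapped with WT. In Kashlid COL4A3 rose by 1.14 ± 0.24 and COL4A4 by 0.93 ± 0.16 (edgeR adjusted p = 0.000731 and 7.15e-05). In LBD they rose by 0.71 ± 0.25 and 0.63 ± 0.16 (adjusted p = 0.0294 and 0.00398). In SUN2KO neither was called, at 0.12 ± 0.26 and 0.08 ± 0.17. The LBD call for COL4A3 was lost in DESeq2 (0.0868) and without WT replicate 1 (0.197), LBD replicate 1 (0.117) or LBD replicate 2 (0.0692), and that for COL4A4 without WT replicate 1 (0.0673).

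COL4A5 and COL4A6 encode the remaining chains, which meet in the basement membranes of skin and smooth muscle. COL4A5 (chromosome X, 107683074 to 107940775) was at 72.7 and 76.2 CPM in WT, 90.1 and 91.4 for SUN2KO, 95.8 and 92.1 for Kashlid and 90.4 and 82.6 for LBD. COL4A6 (chromosome X, 107398837 to 107681660) was at 32.8 and 32.3 CPM in WT, 36.5 and 37.5 for SUN2KO, 48.9 and 52.3 for Kashlid and 41.6 and 44.1 for LBD. Both WT libraries were below all others for both genes, and Kashlid was highest for both. COL4A5 rose in SUN2KO by 0.29 ± 0.06, in Kashlid by 0.34 ± 0.06 and in LBD by 0.22 ± 0.06 (edgeR adjusted p = 0.00117, 0.000185 and 0.00943). COL4A6 rose in Kashlid by 0.64 ± 0.08 and in LBD by 0.40 ± 0.08 (adjusted p = 1.26e-06 and 0.0004), and 0.18 ± 0.08 in SUN2KO was not called (adjusted p = 0.0734). The LBD call for COL4A5 was lost with the neighbours' median taken off (0.179) and without WT replicate 1 (0.0988) or LBD replicate 1 (0.136).

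Over the 6 type IV genes, 1 rose and 2 fell in SUN2KO, 5 rose in Kashlid and 4 rose in LBD, where 17.5%, 21.7% and 19% of all genes tested rose. Type IV transcripts summed to 523.5 and 533 CPM in WT, 439 and 448 for SUN2KO, 602 and 592 for Kashlid, and 563.5 and 557 for LBD. The sums were lowest in SUN2KO and above WT in both truncation lines, without overlap between genotypes. Relative to the WT mean, COL4A1 was at 0.680 and 0.674 and COL4A2 at 0.760 and 0.782 in the SUN2KO libraries. In the Kashlid libraries COL4A3 was at 2.43 and 1.98, COL4A4 at 2.06 and 1.76, COL4A5 at 1.29 and 1.24, and COL4A6 at 1.5 and 1.61. COL4A1 stood at 0.423 and 0.415 of COL4A2 per kilobase in WT and between 0.353 and 0.381 in the other 6 libraries.

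**Figure D4:**
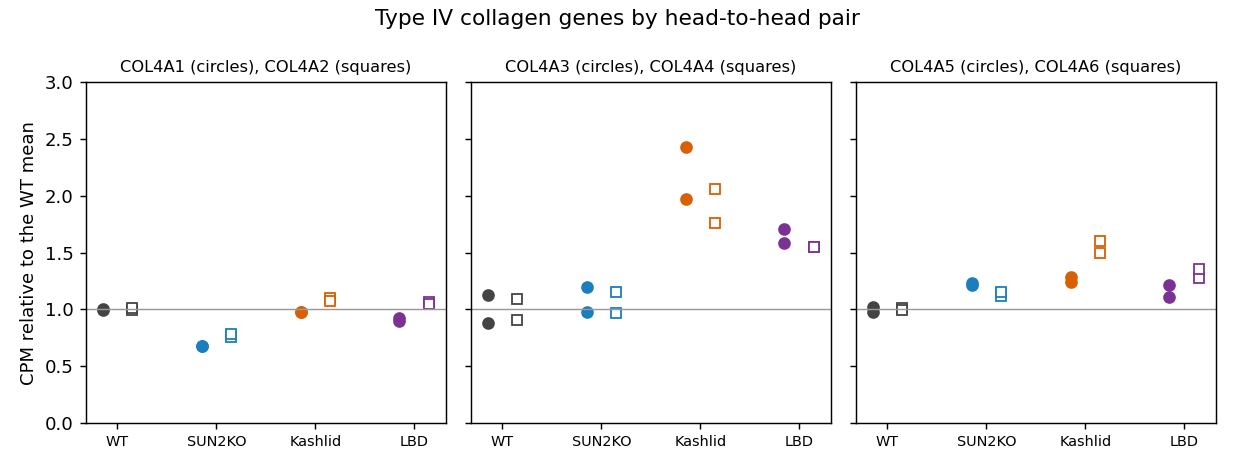
Level of each type IV gene relative to its WT mean, in 1 panel per head-to-head pair, with genotypes on the horizontal axis. Each symbol is 1 library, circles for the first gene of the pair and squares for the second, and the grey line marks 1. COL4A1 and COL4A2 are below the line in SUN2KO, COL4A3 and COL4A4 are well above it in Kashlid and LBD, and COL4A5 and COL4A6 are above it in all 3 altered lines.

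Of the 12 other tested collagens, 1 rose and 5 fell in SUN2KO, 3 rose and 4 fell in Kashlid, and 2 rose and 3 fell in LBD, beside 36.7%, 44.5% and 40% of all genes called. Among them were fibril-associated chains, which decorate the surface of fibrils. COL12A1, such a chain (chromosome 6, 75794042 to 75915623), was at 466 and 455 CPM in WT, 297 and 299 for SUN2KO, 262 and 254 for Kashlid and 293 and 279.6 for LBD. WT was highest without overlap, and Kashlid was lowest. COL12A1 fell by 0.63, 0.84 and 0.68 on the log2 scale in SUN2KO, Kashlid and LBD (SE 0.05 each, edgeR adjusted p = 1.63e-09, 1.38e-11 and 3.35e-10). COL16A1, of the same class, was at 66.4 and 74.5 CPM in WT, 41.1 and 47.6 for SUN2KO, 52.0 and 53.6 for Kashlid and 61.5 and 61.5 for LBD. Again WT was highest and SUN2KO lowest, with no overlap with WT. COL16A1 fell by 0.67 in SUN2KO and 0.42 in Kashlid (adjusted p = 9.92e-07 and 0.000159). Its LBD value of -0.20 ± 0.08 (adjusted p = 0.0446) was lost with library size only (0.102), a stricter filter (0.0514), DESeq2 (0.111), and without WT replicate 2 (0.416), LBD replicate 1 (0.148) or LBD replicate 2 (0.138).

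COL9A3, a chain of the cartilage collagen type IX, was at 16.5 and 18.1 CPM in WT, 20.6 and 23.6 for SUN2KO, 19.7 and 22 for Kashlid and 15.5 and 15.5 for LBD. SUN2KO and Kashlid were above WT and LBD below it. COL9A3 rose in SUN2KO by 0.35 ± 0.11 (edgeR adjusted p = 0.0158), which was lost in DESeq2 (0.0562), without WT replicate 1 (0.136) and without SUN2KO replicate 2 (0.179). The values of 0.27 ± 0.11 in Kashlid and -0.16 ± 0.12 in LBD were not called. In Kashlid COL9A3 did pass with library size only (0.0329) and without Kashlid replicate 1 (0.0401).

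COL7A1 forms the anchoring fibrils that fasten epithelium to the tissue below. COL7A1 (chromosome 3, 48601506 to 48632593) was at 1018 and 1062 CPM in WT, 678 and 753 for SUN2KO, 1233 and 1207 for Kashlid and 1046 and 1187 for LBD. SUN2KO was lowest and Kashlid highest, both without overlap with WT, while 1 LBD library fell within the WT range. COL7A1 fell by 0.54 ± 0.05 on the log2 scale in SUN2KO and rose by 0.23 ± 0.05 in Kashlid (edgeR adjusted p = 1.38e-07 and 0.00144). In LBD it gave 0.10 ± 0.05 (adjusted p = 0.135), which passed without a filter (0.0356) and without LBD replicate 1 (0.0156). Against SUN2KO, COL7A1 was higher by 0.77 ± 0.05 in Kashlid and 0.64 ± 0.05 in LBD (adjusted p = 1.68e-09 and 2.71e-08).

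COL8A1, a network-forming chain known from vessel walls and the cornea, had the second largest rise among collagens with more than 3 counts in every library. COL8A1 (chromosome 3, 99357440 to 99515577) was at 1.72 and 1.31 CPM in WT, 1.03 and 0.860 for SUN2KO, 6.07 and 5.81 for Kashlid and 5.67 and 4.90 for LBD. Kashlid and LBD lay far above WT, and SUN2KO lay below WT, all without overlap. COL8A1 rose by 1.97 ± 0.25 in Kashlid and 1.80 ± 0.26 in LBD (edgeR adjusted p = 2.54e-06 and 1.14e-05), and -0.68 ± 0.33 in SUN2KO was not called (adjusted p = 0.121). Against SUN2KO it was higher by 2.64 ± 0.27 and 2.48 ± 0.28, with adjusted p = 5.48e-07 and 1.59e-06. COL13A1, a transmembrane collagen, had 0 and 2 counts in WT, 4 and 3 for SUN2KO, 16 and 19 for Kashlid, and 13 and 11 for LBD. It entered the test through Kashlid and LBD alone. Over summed counts its ratio to WT was 17.5 (95% counting interval 4.51 to 151) in Kashlid, 12.1 (3.02 to 106) in LBD and 3.25 (0.619 to 32.0) in SUN2KO. No p-value is given, since only its high libraries brought it into the test, and its LBD call was lost without WT replicate 1.

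COL6A1 and COL18A1 both lie near the end of chromosome 21, where the median gene was lower in all 3 lines. COL6A1, a chain of the beaded filaments around cells (chromosome 21, 47401663 to 47424963), was at 42.1 and 41.2 CPM in WT, 28.7 and 26.5 for SUN2KO, 29.8 and 37.4 for Kashlid and 36.3 and 37.1 for LBD. COL18A1, the multiplexin that holds endostatin (chromosome 21, 46875424 to 46933634), was at 63.0 and 68.3 CPM in WT, 50.9 and 52.8 for SUN2KO, 56.4 and 56.7 for Kashlid and 53.2 and 54.0 for LBD. WT was highest for both genes without overlap. COL6A1 fell by 0.60 ± 0.10 on the log2 scale in SUN2KO and by 0.31 ± 0.09 in Kashlid (edgeR adjusted p = 5.22e-05 and 0.0109), and -0.18 ± 0.09 in LBD was not called. COL18A1 fell by 0.34, 0.22 and 0.29 (adjusted p = 0.000491, 0.0132 and 0.00177). The 42 other tested genes in the 5 Mb window of COL18A1 had medians of -0.35, -0.37 and -0.35. With the neighbours' median taken off, COL18A1 stood at 0.00, 0.15 and 0.05, none of them called, and COL6A1 at -0.25 in SUN2KO and 0.06 in Kashlid, not called (adjusted p = 0.0572 and 0.696). In LBD, where COL6A1 was not called, it changed sign to 0.16. The Kashlid calls were also lost without WT replicate 2 for COL18A1 (0.166), and without WT replicate 1 (0.0646) or Kashlid replicate 1 (0.205) for COL6A1, where the Kashlid value without its replicate 1 was -0.16. COL6A2 and COL6A3, the usual partners of COL6A1, had at most 5 and 2 counts in any library.

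Of the other tested members, COL15A1 ranged over 2.50 to 3.99 CPM in the 8 libraries, COL17A1 over 1.10 to 2.51, COL25A1 over 0.227 to 0.868 and COL9A2 over 0.658 to 1.77. None of these 4 was called against WT by edgeR. The 18 members that did not pass the filter had at most 10 counts in any library. The largest counts were 10 for COL10A1, 6 each for COL14A1, COL26A1 and COL6A6, and 5 each for COL20A1, COL8A2 and COL6A2. They were 4 each for COL11A1, COL19A1, COL28A1 and COL2A1, and 3 for COL1A2. They were 2 each for COL21A1 and COL6A3 and 1 each for COL22A1 and COL23A1. COL6A5 and COL9A1 had 0 counts in all 8 libraries, and 0 counts allow up to 3 in a library of this depth, as counting error only.

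The truncation lines were also compared with SUN2KO, which asks where carrying a truncated SUN2 and being labelled as a knockout go with different collagen levels. In Kashlid 13 collagens were higher than in SUN2KO and 2 were lower, where 18% of all genes tested were called, 8.92% higher and 9.13% lower. In LBD 9 were higher and 2 lower, where 13.5% of all genes were called, 6.69% higher and 6.79% lower. The median log2 fold change of the tested collagens was 0.27 in Kashlid and 0.36 in LBD. For all genes tested the medians were within 0.01 of 0. Both comparisons share the SUN2KO libraries. Those higher in LBD were COL4A1, COL4A2, COL4A4, COL5A1, COL5A3, COL6A1, COL7A1, COL8A1 and COL16A1, and in Kashlid these 9 and COL4A3, COL4A6, COL13A1 and COL27A1. COL4A1 was higher by 0.53 ± 0.06 and 0.43 ± 0.06 (edgeR adjusted p = 5.95e-07 and 1.21e-05). COL4A2 was higher by 0.50 ± 0.05 and 0.45 ± 0.05 (adjusted p = 1.19e-07 and 5.1e-07). COL5A1 was higher by 0.32 ± 0.06 and 0.49 ± 0.06 (adjusted p = 0.000982 and 9.07e-06), and so lay between SUN2KO and WT in both lines. COL5A2 was lower, at -0.41 ± 0.04 and -0.51 ± 0.04 (adjusted p = 8.85e-07 and 4.73e-08). COL12A1 was the other collagen lower in Kashlid (-0.21 ± 0.05, adjusted p = 0.00279), and COL9A3 the other in LBD (-0.51 ± 0.11, adjusted p = 0.00339). Leaving out single libraries moved these counts. Without SUN2KO replicate 1, 8 collagens were higher in Kashlid, as COL4A3 (0.0753), COL6A1, COL13A1, COL16A1 and COL27A1 (0.104) no longer passed, and the genes of the whole table called higher went from 1250 to 585. COL6A1 (0.29 ± 0.10, adjusted p = 0.047) was lost there (0.103), in DESeq2 (0.111), with the 2 groups alone (0.0895), without SUN2KO replicate 2 (0.262) and without Kashlid replicate 2 (0.12, adjusted p = 0.493). COL16A1 (0.25 ± 0.08, adjusted p = 0.0312) was lost there (0.373), in DESeq2 (0.0761), with the 2 groups alone (0.0547), with the neighbours' median taken off (0.109) and without Kashlid replicate 2 (0.0902). COL27A1 was also lost without Kashlid replicate 2 (0.053), and COL13A1, which the filter admitted through its high libraries, in DESeq2 and without SUN2KO replicate 2. Without SUN2KO replicate 2, 1 collagen was lower in LBD, as COL9A3 did not pass (0.0792). COL4A4 lost its LBD call in DESeq2 (0.081) and without SUN2KO replicate 1 (0.241), LBD replicate 1 (0.0948) or LBD replicate 2 (0.124), and COL6A1 without SUN2KO replicate 2 (0.0908) or LBD replicate 2 (0.0597).

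Between the truncations, 1 collagen was called lower in LBD than in Kashlid and 0 higher, where 2.91% of all genes tested were called, 1.63% higher and 1.28% lower. At an unadjusted p under 0.05 in edgeR, 5 were higher and 5 lower. The share of all genes at that threshold was not counted, and the 2.91% does not apply to it. DESeq2 gave an adjusted p for 10 of the 26 collagens, COL9A3 not among them, and called 1 higher, COL12A1 (0.0441). The collagen called was COL9A3, at -0.43 ± 0.11 (edgeR adjusted p = 0.0443), which was lost with the 2 groups alone (0.119), with the neighbours' median taken off (0.0673), and without Kashlid replicate 2 (0.147), LBD replicate 1 (0.214) or LBD replicate 2 (0.182). COL5A1 gave 0.17 ± 0.06 (95% interval 0.04 to 0.30), with an adjusted p of 0.145 that fell to 0.00225 without a filter, 0.00663 without Kashlid replicate 2 and 0.0428 without LBD replicate 1. COL7A1 was called lower without a filter (0.0418) and COL4A6 with the neighbours' median taken off (-0.29, adjusted p = 0.0411). COL5A3 differed by 0.14 (-0.17 to 0.45), COL8A1 by -0.17 (-0.61 to 0.28) and COL7A1 by -0.13 (-0.24 to -0.02). These intervals leave out a 2-fold difference for all 4 genes, and a missed threshold does not show equal levels.

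The genes that modify, secrete, cut and cross-link collagen chains were taken from a list of 39, of which 33 were in the table and 28 were tested. In SUN2KO 1 rose and 16 fell, in Kashlid 2 rose and 19 fell, and in LBD 3 rose and 18 fell, against the shares of all genes called given above. The medians were -0.25, -0.29 and -0.26 on the log2 scale, beside 0.00, 0.01 and 0.00 for all genes. P4HA3, a catalytic subunit of prolyl 4-hydroxylase, which stabilises the triple helix, was at 6.48 and 6.14 CPM in WT, 2.16 and 1.83 for SUN2KO, 3.70 and 3.52 for Kashlid and 3.35 and 4.96 for LBD. WT was highest and SUN2KO lowest, without overlap with WT. P4HA3 fell with log2 fold changes of -1.66, -0.80 and -0.60 (edgeR adjusted p = 1.78e-05, 0.00621 and 0.0352). The genes that rose, named after their values were seen, were MIA3, which loads collagen into vesicles, at 0.15, 0.23 and 0.26 in the 3 lines, LOX in Kashlid and LBD, and PCOLCE2, an enhancer of propeptide cleavage, in LBD at 0.48. The LBD call of P4HA3 was lost in DESeq2 (0.115) and without WT replicate 1 (0.143), WT replicate 2 (0.0931) or LBD replicate 1 (0.322).

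PLOD3, which hydroxylates and glycosylates lysines of collagen, fell with log2 fold changes of -0.74, -0.77 and -0.70 in SUN2KO, Kashlid and LBD (edgeR adjusted p = 1.61e-09, 5.07e-10 and 2.6e-09). LEPREL1, a prolyl 3-hydroxylase, fell with -0.63, -1.23 and -0.94 (0.000231, 8.03e-08 and 2.71e-06). BMP1, the protease that removes the C-terminal propeptide of fibrillar collagens, fell with -0.62, -0.66 and -0.53 (1.1e-07, 2.48e-08 and 6.53e-07). The 33 other tested genes in the BMP1 window had medians of -0.37 in SUN2KO, -0.20 in Kashlid and -0.16 in LBD. LOX, which cross-links collagen outside the cell, was at 20.8 and 27.6 CPM in WT, 18.2 and 24.9 for SUN2KO, 36.5 and 50.6 for Kashlid and 31.6 and 58.5 for LBD. LOX rose in Kashlid by 0.85 ± 0.20 and in LBD by 0.89 ± 0.20 (adjusted p = 0.00195 and 0.0014), and -0.17 ± 0.22 in SUN2KO was not called. In DESeq2 neither LOX value passed (0.0891 and 0.0739), and the LBD value fell to 0.39 without LBD replicate 2 (edgeR adjusted p = 0.133).

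Collagen receptors were 12 genes, of which 8 were tested. In SUN2KO 1 rose and 5 fell, and in Kashlid and in LBD 2 rose and 4 fell, with medians of -0.58, -0.63 and -0.42 beside 0.00, 0.01 and 0.00 for all genes, of which 36.7%, 44.5% and 40% were called. DDR2, a receptor tyrosine kinase for fibrillar collagen, was at 7.25 and 8.98 CPM in WT, 4.0 and 3.87 for SUN2KO, 3.58 and 1.99 for Kashlid and 1.85 and 1.91 for LBD. WT was highest and LBD lowest, without overlap. DDR2 fell with log2 fold changes of -1.04, -1.54 and -2.11 (edgeR adjusted p = 0.00108, 2.65e-05 and 1.55e-06). MRC2, which takes up collagen for breakdown, gave -0.84, -1.12 and -1.18 (1.15e-10, 8.26e-13 and 5.81e-13). ITGB1, the shared beta subunit of the collagen-binding integrins, gave -0.78, -0.99 and -0.82, and ITGA1, an alpha subunit, gave -0.66, -1.40 and -1.05, all of them called lower. The 11 other tested genes in the ITGB1 window had medians of -0.61 in SUN2KO and -0.48 in Kashlid. For the ITGA1 window they were -0.08 and -0.10. The part of the window's shift in the ITGB1 values was not tested.

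ITGA2, the other main alpha subunit for collagen in epithelium, was at 142 and 158 CPM in WT, 111 and 101 for SUN2KO, 255 and 233 for Kashlid and 275 and 336 for LBD. SUN2KO lay below WT and both truncation lines above it, without overlap. ITGA2 fell by 0.50 ± 0.08 on the log2 scale in SUN2KO and rose by 0.70 ± 0.08 in Kashlid and 1.03 ± 0.08 in LBD (edgeR adjusted p = 5.31e-05, 3.4e-07 and 1.72e-09). DDR1, the discoidin receptor of epithelium, named after its values were seen, was the 1 receptor called higher in all 3 lines, at 0.30, 0.38 and 0.37. Against SUN2KO, ITGA2 was higher by 1.20 ± 0.08 in Kashlid and 1.53 ± 0.08 in LBD (adjusted p = 7.04e-10 and 1.1e-11).

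**Figure D5:**
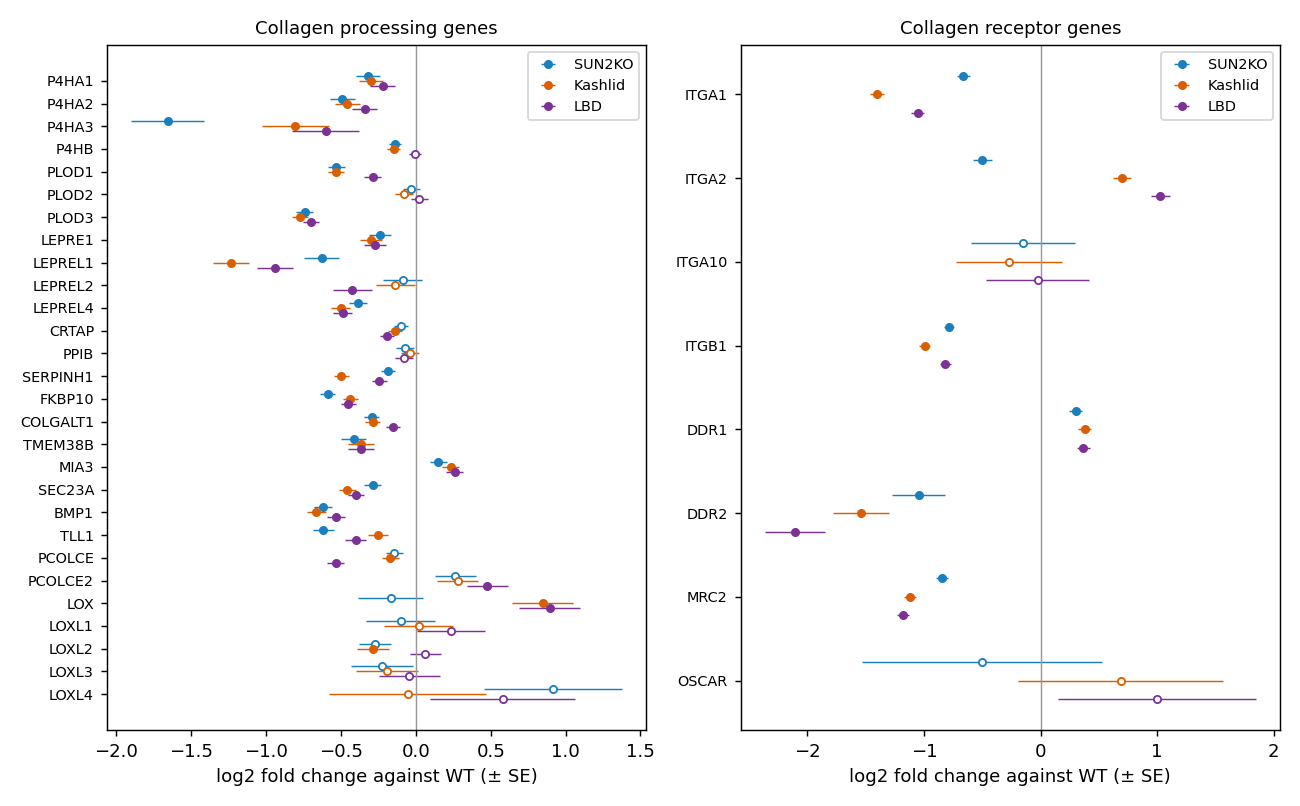
Log2 fold changes against WT of the 28 tested processing genes and the 8 tested receptors in SUN2KO, Kashlid and LBD, with bars for the SE of the fit and filled points for adjusted p under 0.05. Most filled points of the processing genes lie left of 0. ITGA2 lies left of 0 in SUN2KO and right of it in Kashlid and LBD.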

How the data were processed

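RNA was sequenced as paired-end reads from 10000000 MDA-MB-231 cells per sample, per the labels. Per the submitters' processing notes, Trim Galore, STAR 2.7.1a, bedtools 2.24.0, HTSeq, DESeq2 and the hg19 build were used. The deposited table holds raw read counts per gene. Which annotation was used, and whether strand was, is not given in the sources used here. Overlapping genes and near-identical copies may share counts. Tables of each line against WT were deposited too, made with DESeq2 per the submitters' processing notes and without column names. The authors' log2 fold changes and adjusted p-values, made with DESeq2 before deposit, were identified by their likeness to recomputed values, and unnamed columns per library were not used.

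The fit used edgeR 4.0.16 under R 4.3.3 on all 8 libraries, with TMM factors, filterByExpr by group, 1 term per group and 4 residual degrees of freedom. The quasi-likelihood test was two-sided, with Benjamini-Hochberg adjustment over the 14016 genes kept of 25369 and calls at adjusted p under 0.05. SE is the size of the log2 fold change divided by the square root of F. CPM per kb used the longest principal transcript in GENCODE 29. The steps were tested on simulated data. The table had 0 entries naming no gene. Total counts were 17115114 and 17779388 in WT, 18814795 and 18662262 for SUN2KO, 17041108 and 16851763 for Kashlid, and 17146119 and 16570099 for LBD, and counting intervals cover counting error only.

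Collagens called in any comparison with WT were named with every library, the others by range or largest count. Up to 4 called processing genes and receptors per comparison were named by size of change. The members and lists were chosen with earlier results of these data known. Alternatives were scaling by library size alone or by median ratios, dropping the filter or raising it to 5 CPM in 2 libraries, and DESeq2 1.42.0. Others were fitting the compared pair of groups by itself, blocking on replicate number, omitting each library in turn, and taking off a neighbours' median. This is the median of all tested genes in the gene's 5 Mb window, itself included. Windows were cut at fixed 5 Mb steps along each chromosome and are not centred on the gene. Those with fewer than 15 tested genes were left unadjusted, among them the windows of COL3A1, COL4A3, COL4A4, COL5A2, COL8A1, COL12A1, COL25A1, ITGB1 and LOX. Promoter sequences and start sites are from RefSeq on GRCh38.p14, and no coordinate was moved between builds.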

Additional observations from a re-analysis of the deposited data

How the results depend on the processing

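Over the alternatives, 2087 gene values kept direction and side of the threshold, 68 lost a call and 36 gained one. Among the 2087 are values of genes whose 5 Mb window held too few genes to be adjusted. Another 38, called neither before nor after, changed sign, and 4 called values did. The 4 were COL18A1 at 0.00439 in SUN2KO, 0.15 in Kashlid and 0.0518 in LBD, and COL6A1 at 0.0557 in Kashlid, all against WT with the median of neighbouring genes taken off, which is how that alternative is built. With that median off, 5 collagens were lower in SUN2KO than in WT, against 8. With a stricter filter, which tests 17 collagens, 5 were higher in LBD than in WT, against 8. Leaving out 1 library gave 4 to 8 collagens higher in LBD than in WT (4 without WT replicate 1), 8 to 14 higher in Kashlid than in SUN2KO, and 1 to 2 lower in LBD than in SUN2KO. Between LBD and Kashlid it gave 0 to 1 higher and 0 to 1 lower. There, 1 was higher and 2 lower without a filter, 1 and 0 in DESeq2, which gave 16 of 26 collagens no adjusted p, COL9A3 included, and 0 lower with the 2 groups alone. Over all genes, 1567 were higher in SUN2KO than in WT without WT replicate 2, against 2455. LBD against Kashlid gave 392 higher and 383 lower without a filter and 80 and 51 with the 2 groups alone, against 229 and 179. DESeq2 gave 628 lower in LBD than in SUN2KO, against 952. Without 1 library, genes higher in Kashlid than in SUN2KO fell to as few as 585 and those lower to 617, those higher in LBD than in SUN2KO to 438 and those lower to 418, and LBD against Kashlid ranged down to 66 higher and 32 lower and up to 424 and 439. The cause was not tested. The replicate numbers share only a number: same-numbered libraries correlated in their deviations between -0.02 and 0.10 over 6 pairs of groups. With the replicate block, 1 collagen was higher in LBD than in Kashlid and 273 genes were lower there, calls over all genes went from 5137 to 5412 in SUN2KO against WT, and 6 of 192 gene calls changed, all gained: COL27A1 lower in SUN2KO (0.035), COL9A3 higher in Kashlid (0.0432) and COL4A1 lower in LBD (0.049) against WT, SUN2 (0.0384) and COL27A1 (0.0498) higher in LBD than in SUN2KO, and COL5A1 higher in LBD than in Kashlid (0.0313).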
